A study of Mus musculus with 212 samples.

Results

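MicroRNAs miR-204, miR-211, miR-34b, miR-34c and miR-449a were followed through brains of the LXS recombinant inbred mouse panel. The genes Trpm3 and Trpm1, which span the miR-204 and miR-211 hairpins, and the ciliated cell regulator Foxj1 were followed in 23 mRNA profiles. These are named for the parent strains ILS and ISS and for LXS41 and LXS80 of the panel. The members were chosen by name, as markers of choroid plexus and ciliated ependymal cells, and not by a measured value. Earlier results of these data were known when they were chosen. They comprise 5 of 881 features of the miRNA table and 3 of 27123 rows of the mRNA table. All 8 were found and all 8 passed the filters on low values.

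In the brain, miR-204 is known as an abundant miRNA of the choroid plexus, the epithelium that secretes cerebrospinal fluid, where its host gene Trpm3, a cation channel, is also expressed. MiR-211 is its near-identical relative, hosted by Trpm1, a cation channel of melanocytes and retinal bipolar cells. Foxj1 is the master regulator of motile cilia, and the miR-34 and miR-449 families, which share a seed, promote the formation of multiple cilia in cells such as the ependyma. A seed is the stretch of a miRNA that pairs with its targets.

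The mature sequences are shown because the families are defined by the seed, given in capitals as bases 2 to 8 from the 5′ end. They come from RefSeq on GRCm38.p6, which matched 4 of the 5 members. The miR-34c-5p sequence is shown inside its hairpin, with the shared seed in capitals.
miR-204-5p: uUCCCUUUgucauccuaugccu
miR-211-5p: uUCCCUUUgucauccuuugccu
miR-34b-5p: aGGCAGUGuaauuagcugauugu
miR-449a-5p: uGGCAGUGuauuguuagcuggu
miR-449c-5p: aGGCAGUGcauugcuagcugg
miR-34a-5p: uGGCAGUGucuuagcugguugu
Mir34c hairpin: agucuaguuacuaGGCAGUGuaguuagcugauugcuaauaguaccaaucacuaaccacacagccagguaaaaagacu
miR-34b-3p: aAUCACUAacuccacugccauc
miR-34c-3p: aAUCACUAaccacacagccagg

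MiR-204-5p and miR-211-5p share the seed UCCCUUU and differ over their 22 bases by the single substitution A17U, counted from the 5′ end with the base of miR-204-5p first. The miR-34 and miR-449 members share GGCAGUG, and the 3p arms of miR-34b and miR-34c share another seed, AUCACUA. The miR-204 hairpin lies at chr19:22750605-22750672 on the plus strand, within the span of Trpm3, and the miR-211 hairpin at chr7:64205806-64205911 on the plus strand, within Trpm1. The miR-34b and miR-34c hairpins lie 451 bases apart on the minus strand, at chr9:51103562-51103645 and chr9:51103034-51103110, within the annotated spans of Hoatz and Btg4. The miR-449a and miR-449c hairpins lie at chr13:113037534-113037624 and chr13:113035983-113036091 on the plus strand, within Cdc20b, a gene of the multiciliated cell program.

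Small RNA was sequenced from the right brain hemisphere of untreated mice. The miRNA table gave 1 normalized value for each of 59 LXS strains, inbred lines bred from a cross of ILS (Inbred Long Sleep) with ISS (Inbred Short Sleep), strains that differ in sensitivity to alcohol. The sources used here do not state the age of the mice. By the labels, 15 strains had libraries in sequencing batches 1 to 3 only, 27 in batches 4 and 5 only, and 17 in both. From the mRNA table, 6 profiles named for ILS, 6 for ISS, 5 for LXS41 and 6 for LXS80 were used. The labels describe the small RNA libraries and not these profiles, so a shared tissue and treatment are not stated for them, and p-values measure only the spread between profiles, which may be technical. Each column name carries a different number after the strain, which was read as an animal number, though the labels do not describe it.

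Normalized totals per strain ran from 12164300 to 15093700 over the features of the miRNA table, and their read depth is unknown. Each value is the authors' value for a strain, with 2 to 7 labelled libraries from 2 or 3 replicate letters behind it, so no error within a strain can be given. Repeat libraries of 1 replicate are counted there, such as those that bring LXS41 to 7 libraries from 3 replicates and LXS80 to 6 from 3. Of the 17 strains with both batch sets, 14 have libraries in batches 4 and 5 only as repeats of replicates also in batches 1 to 3. Library names tag 8 of the strains HIGH, 9 MED and 10 LOW, a tag whose meaning the sources used here do not state. All 27 strains of batches 4 and 5 carry no tag. In a sample of mixed tissue such as a brain hemisphere, fewer cells of a type and less RNA per cell cannot be told apart.

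Among the 2 miRNAs with the UCCCUUU seed, nearly all signal was miR-204-5p. Over the 59 strains its normalized signal ran from 11831 to 50444, with a median of 24629. MiR-211-5p ran from 4.37 to 30.2, with a median of 14.1, and made up 0.0220% to 0.105% of the signal of the pair. A read of miR-204-5p with the altered base A17U is identical to miR-211-5p, and the sources used here do not state how reads were assigned. The part of such reads in the miR-211-5p values was not tested.

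MiR-204-5p was lower in strains sequenced only in batches 4 and 5. There it ran from 11831 to 23702, with a median of 16995, against 16193 to 50110 (median 31924) in strains of batches 1 to 3 only and 26225 to 50444 (median 36808) in strains with both. The groups overlapped by a single strain, since 31 of the 32 other strains lay above all 27 strains of batches 4 and 5. The difference between batches 4 and 5 and batches 1 to 3 was -0.90 on the log2(value + 1) scale (SE 0.0951, 1.87-fold lower; limma adjusted p = 8.71e-12). Of 647 features tested, 36.3% were lower and 30.6% were higher by this test, 66.9% in all, so a call here is the common outcome and is not particular to miR-204. Each strain sits in 1 batch group, and batch cannot be told apart from the strains' own differences.

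For miR-211-5p no such difference passed the test. Its signal ran from 7.89 to 28.8 (median 13.9) in strains of batches 1 to 3, from 9.43 to 30.2 (median 18.4) in strains with both, and from 4.37 to 19.9 (median 13.6) in strains of batches 4 and 5. These ranges overlapped over most of their width. The difference was -0.15 (SE 0.144, limma adjusted p = 0.358), and the F test over the batch shares gave an adjusted p of 0.103. That F test called 86.7% of all features, including the other 4 member miRNAs. Whether the batch difference of miR-204-5p differs from that of miR-211-5p was not tested.

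**Figure D1:**
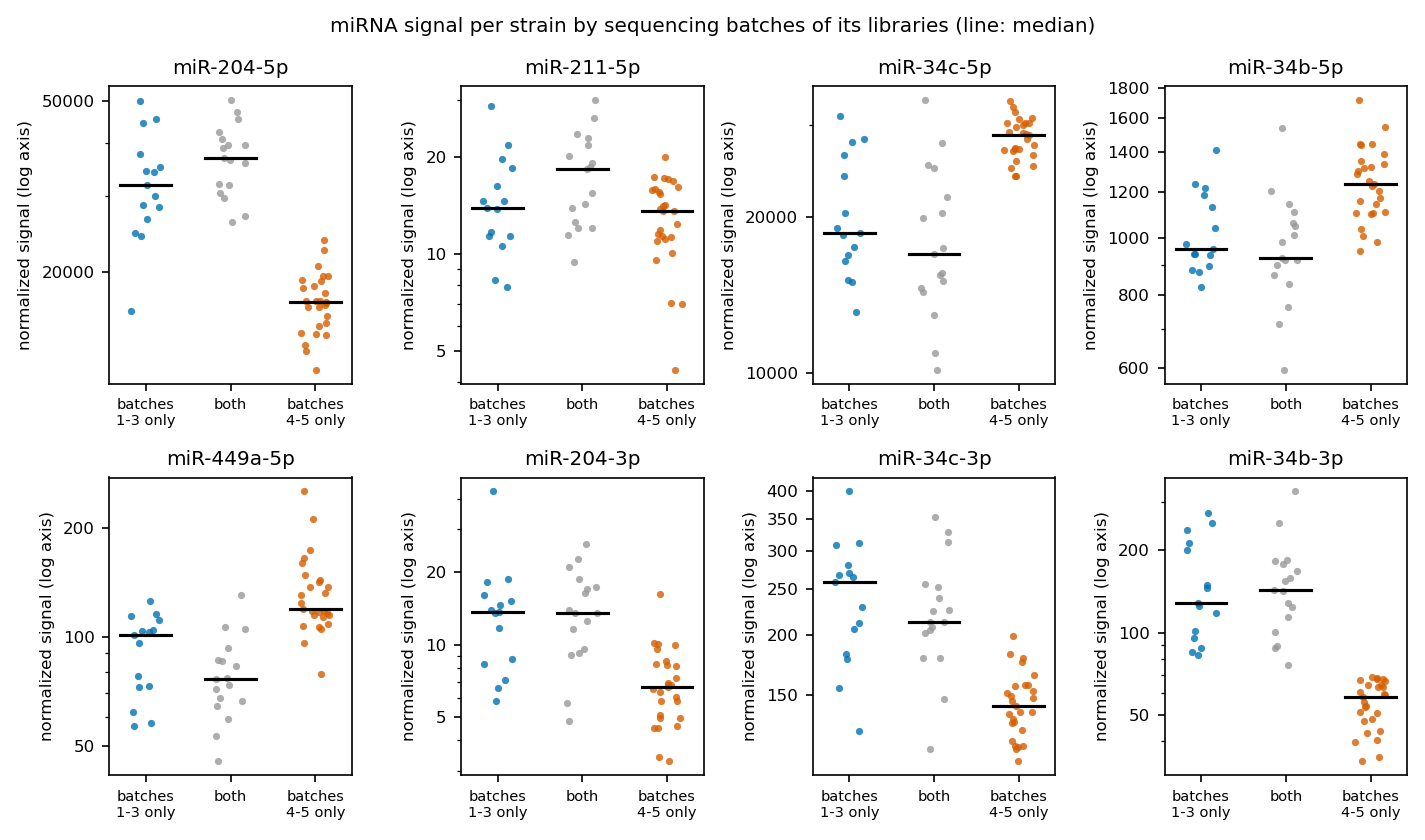
Normalized signal on a log axis of the 5 member miRNAs and of 3 opposite arms, with 1 point per strain grouped by the sequencing batches of its libraries and a line at the median. In strains of batches 4 and 5 only, miR-204-5p had a median of 16995 against 31924 in strains of batches 1 to 3 only, miR-34c-5p had 28752 against 18610, and all 27 miR-34b-3p values lay below those of the other 32 strains. How many features outside the figure separated in this way was not counted.

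The strains at the ends of the miR-204-5p range came from different batch groups. The highest values were 50444 in LXS93, 50110 in LXS13 and 47194 in LXS43, none of them sequenced in batches 4 and 5 only. The lowest were 11831 in LXS64, 13110 in LXS89 and 13534 in LXS75, all of batches 4 and 5 only. For miR-211-5p the highest were LXS19 at 30.2, LXS34 at 28.8 and LXS24 at 26.4, and the lowest LXS89 at 4.37, LXS76 at 7.01 and LXS60 at 7.03. LXS89 was thus among the 3 lowest strains for both.

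Since the strains fall into clusters by batch, relations between miRNAs were read within the batch groups, with Benjamini-Hochberg adjustment over 40 pairs and two-sided permutation tests. The pairs join the members with each other and with the comparators miR-34a-5p, miR-200b-3p, miR-126a-3p, miR-451a, miR-124-3p and miR-9-5p. Relations with the comparators are not given here, and whether those between members are stronger was not tested. MiR-204-5p and miR-211-5p had a positive r in all 3 groups, which passed the test in those of 27 and 17 strains. In the 27 strains of batches 4 and 5, Pearson's r was 0.53 (permutation, adjusted p = 0.0272) and Spearman's rho 0.61 (adjusted p = 0.0139), and r was 0.57 without the 2 strains farthest from the median. In the 17 strains with both, r was 0.66 (permutation, adjusted p = 0.0175) and rho 0.74 (adjusted p = 0.00993), and r was 0.81 without the 2 farthest. In the 15 strains of batches 1 to 3, r was 0.51 (permutation, adjusted p = 0.114), rho was 0.40 (adjusted p = 0.245), and r was 0.39 without the 2 farthest. Reads of miR-204-5p with the altered base A17U would be identical to miR-211-5p, and their part in this relation was not tested.

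The passenger arm miR-204-3p was far below the 5p arm, with a median signal of 9.01 and a range of 3.27 to 43.3. It was lower in strains of batches 4 and 5 than in those of batches 1 to 3, like its 5p arm, by -0.84 (SE 0.178, limma adjusted p = 4.73e-05). The 5p to 3p ratio had medians of 2747, 2910 and 2583 in strains of batches 1 to 3, of both, and of batches 4 and 5. Those 3 ranges overlapped, from 812 to 5591 in all.

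Turning to the GGCAGUG seed, miR-34c-5p held most of the signal of the family. Its share of the summed 5p signal of miR-34a, miR-34b, miR-34c, miR-449a and miR-449c had a median of 86.5% and ran from 77.7% to 90.0%. MiR-34a-5p, a relative expressed in many cell types, had a median share of 8.70%, miR-34b-5p 4.05%, miR-449a-5p 0.368% and miR-449c-5p 0.133%. The ranges of miR-34c-5p and miR-34a-5p shares did not overlap, since miR-34a-5p reached at most 16.8%.

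All 3 ciliated cell miRNAs were called higher in strains of batches 4 and 5 than in those of batches 1 to 3, a direction in which 30.6% of all features were called. MiR-34c-5p ran from 23975 to 33341 (median 28752) there, from 13134 to 31184 (median 18610) in strains of batches 1 to 3, and from 10147 to 33595 (median 16964) in strains with both. Of the 32 other strains, 23 lay below all strains of batches 4 and 5 and 1, LXS41, lay above them all. The difference from batches 1 to 3 was 0.51 on the log2(value + 1) scale (SE 0.104, 1.42-fold; limma adjusted p = 2.69e-05).

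MiR-34b-5p ran from 949 to 1723 (median 1239) in strains of batches 4 and 5, from 825 to 1415 (median 959) in those of batches 1 to 3 and from 596 to 1541 (median 926) in those with both. The groups overlapped, and the difference was 0.28 (SE 0.0803, limma adjusted p = 0.0020). MiR-449a-5p ran from 78.9 to 253 (median 119), from 56.8 to 126 (median 101) and from 45.2 to 131 (median 76.6) in the same order, with a difference of 0.53 (SE 0.116, limma adjusted p = 6.46e-05). The highest 11 strains for miR-449a-5p were all of batches 4 and 5. Of the other family members, miR-449c-5p, from the same gene as miR-449a, differed by 0.30 (SE 0.0917, adjusted p = 0.00361), and miR-34a-5p by 0.21 (SE 0.0874, adjusted p = 0.0326). That of miR-34a-5p no longer passed after division by the strain total (adjusted p = 0.0664) or in the variance-stabilized table (adjusted p = 0.0878).

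The opposite arms of the miR-34b and miR-34c hairpins went the other way. MiR-34b-3p ran from 33.8 to 68.7 (median 58.2) in strains of batches 4 and 5, against 82.6 to 274 (median 128) in those of batches 1 to 3 and 76.4 to 329 (median 143) in those with both, with no overlap. The difference was -1.36 (SE 0.146, 2.57-fold lower; limma adjusted p = 1.61e-11). By this test 36.3% of all features were lower, and how many of them also showed no overlap was not counted. MiR-34c-3p differed by -0.71 (SE 0.108, limma adjusted p = 1.03e-07), with medians of 142 against 258 and ranges that overlapped. The ratio of miR-34b-5p to miR-34b-3p therefore had a median of 22.1 in strains of batches 4 and 5, against 7.52 in those of batches 1 to 3, and that of miR-34c-5p to miR-34c-3p 205 against 70.5.

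The strains at the ends of the range were nearly the same for miR-34b-5p and miR-34c-5p. LXS41, LXS78 and LXS115 had the 3 highest values of both, with 33595, 33341 and 32459 of miR-34c-5p. LXS19, LXS93 and LXS32 had the 3 lowest of both, with 10147, 10946 and 12944 of miR-34c-5p. LXS115 also had the highest miR-449a-5p, at 253, ahead of LXS23 at 211.1 and LXS123 at 174, and LXS93 the lowest, at 45.2, with LXS24 at 53.1 and LXS13 at 56.8 next.

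MiR-34b-5p and miR-34c-5p, which come from neighbouring hairpins, moved together in every batch group. Pearson's r was 0.87 over the 15 strains of batches 1 to 3 (permutation, adjusted p = 0.0024), 0.89 over the 17 with both (adjusted p = 0.0008) and 0.86 over the 27 of batches 4 and 5 (adjusted p = 0.0004). Spearman's rho was 0.78, 0.83 and 0.85 (permutation, adjusted p = 0.0083, 0.0060 and 0.0004). Without the 2 strains farthest from the median, r was 0.78, 0.80 and 0.86. The ratio of miR-34c-5p to miR-34b-5p still varied, from 13.6 to 27.7 over all strains, with medians of 20.7, 18.6 and 23.1 in the 3 groups.

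MiR-449a-5p was related to miR-34c-5p in 1 of the batch groups. Their r was 0.60 over the 17 strains with both (permutation, adjusted p = 0.0323; rho 0.63, adjusted p = 0.0331), and 0.45 without the 2 farthest strains, where it no longer passed (adjusted p = 0.231). In strains of batches 1 to 3 and of batches 4 and 5, r was 0.33 and 0.26 (permutation, adjusted p = 0.331 and 0.455; rho 0.08 and 0.21, adjusted p = 0.883 and 0.483). Whether this differs from the relation of miR-34b-5p and miR-34c-5p was not tested.

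**Figure D2:**
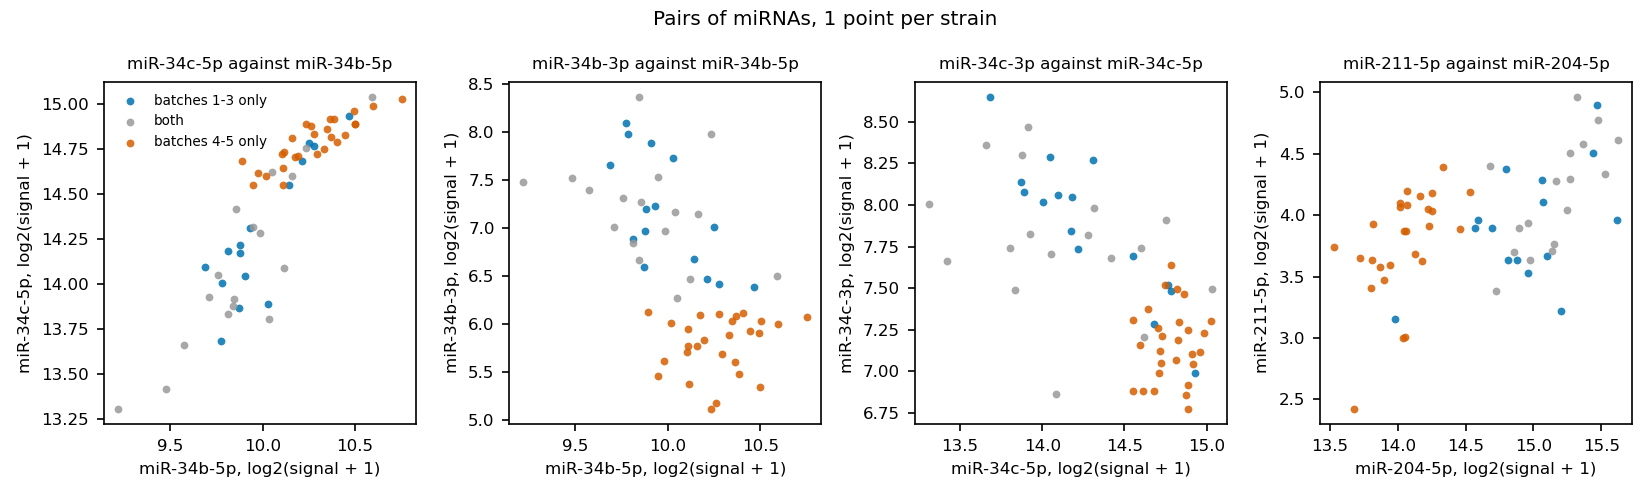
Log2(normalized signal + 1) of 4 pairs of miRNAs, with 1 point per strain coloured by the sequencing batches of its libraries. MiR-34b-5p and miR-34c-5p lie along 1 line in each group, while the 3p arms of miR-34b and miR-34c split the strains of batches 4 and 5 from the others.

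The relation between the 2 arms of a hairpin was also read within the batch groups. In the 15 strains of batches 1 to 3, miR-34c-5p and miR-34c-3p were inversely related (r -0.89, permutation, adjusted p = 0.00012 over 4 pairs; rho -0.83, adjusted p = 0.0008; r -0.84 without the 2 farthest strains). In the 17 strains with both, r was -0.33 (permutation, adjusted p = 0.203; rho -0.34, adjusted p = 0.186), and in the 27 strains of batches 4 and 5 it was 0.07 (adjusted p = 0.739; rho 0.00, adjusted p = 1.0). MiR-34b-5p and miR-34b-3p gave r of -0.68 (permutation, adjusted p = 0.0074; rho -0.63, adjusted p = 0.0136) in batches 1 to 3, which fell to -0.54 without the 2 farthest strains (adjusted p = 0.0583). It was -0.34 (permutation, adjusted p = 0.203; rho -0.35, adjusted p = 0.186) in strains with both and 0.17 (adjusted p = 0.739; rho 0.17, adjusted p = 0.808) in batches 4 and 5. MiR-204-5p and miR-204-3p gave r of 0.40, 0.60 and 0.08 in batches 1 to 3, both, and batches 4 and 5 (permutation, adjusted p = 0.138, 0.0208 and 0.739; rho 0.65, 0.53 and 0.04, adjusted p = 0.0136, 0.0588 and 1.0), and 0.54, 0.64 and 0.32 without the 2 farthest. The 3p arms of miR-34b and miR-34c rose together in all 3 groups, with r of 0.76, 0.67 and 0.67 (permutation, adjusted p = 0.0019, 0.0138 and 0.0004) and rho of 0.72, 0.62 and 0.63 (adjusted p = 0.00658, 0.0355 and 0.00208). Without the 2 farthest strains r was 0.71, 0.47 and 0.56, and the second of these no longer passed (adjusted p = 0.153). None of these differences between batch groups was tested. Each group still pools strains of more than 1 batch. With batch shares removed over all 59 strains, 2 of the 4 arm pairs passed by rho with a positive sign and 0 with a negative sign.

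Between miR-204-5p and the 3 ciliated cell miRNAs, no positive relation passed the test in any batch group. MiR-204-5p and miR-34c-5p had r of -0.73 over the strains of batches 1 to 3 (permutation, adjusted p = 0.0084; rho -0.68, adjusted p = 0.0298) and -0.61 over those with both (adjusted p = 0.0323; rho -0.56, adjusted p = 0.0684). Without the 2 farthest strains these were -0.52 and -0.49 (adjusted p = 0.213 and 0.216), still negative but no longer past the threshold with 13 and 15 strains. Over the strains of batches 4 and 5 it was 0.01 (permutation, adjusted p = 0.964; rho -0.02, adjusted p = 0.957). MiR-204-5p and miR-34b-5p had r of -0.70 in batches 1 to 3 (permutation, adjusted p = 0.0158; rho -0.56, adjusted p = 0.0917; r -0.45 without the 2 farthest), -0.54 in strains with both (adjusted p = 0.0624; rho -0.42, adjusted p = 0.177) and 0.22 in batches 4 and 5 (adjusted p = 0.544; rho 0.26, adjusted p = 0.378). MiR-204-5p and miR-449a-5p had negative r in all 3 groups, of which the value in strains with both passed (r -0.58, permutation, adjusted p = 0.0432; rho -0.50, adjusted p = 0.094; r -0.37 without the 2 farthest).

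The HIGH and LOW tags did not separate any member. With batch shares in the model, HIGH minus LOW was 0.20 (SE 0.146) for miR-204-5p, 0.08 (SE 0.215) for miR-211-5p, -0.13 (SE 0.178) for miR-449a-5p, -0.11 (SE 0.116) for miR-34b-5p and -0.10 (SE 0.148) for miR-34c-5p. MiR-204-5p, for example, ran from 34360 to 50444 (median 38576) in HIGH strains, from 16193 to 50110 (median 35948) in MED strains and from 27031 to 45534 (median 33162) in LOW strains, and these ranges overlapped. Limma adjusted p-values of the 5 members ran from 0.981 to 0.992, and 0% of all features were called, while 26 of 647 had an unadjusted p under 0.05. A p that misses the threshold does not show that the tagged strains are alike.

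By rank over the 59 strains, the feature most like miR-204-5p was miR-34b-3p (Spearman's rho 0.91), followed by miR-674-3p, miR-409-3p, miR-1198-5p and miR-3061-3p (0.91 to 0.89). After removal of batch shares their rho ran from 0.69 to 0.72. The features most like miR-34c-5p were miR-34b-5p (0.92) and miR-301a-3p (0.91), then miR-99a-3p, miR-540-5p and miR-142a-3p (0.83 to 0.80). For miR-34b-5p they were miR-34c-5p, miR-301a-3p, miR-99a-3p, miR-142a-3p and miR-21a-5p (0.92 to 0.75). MiR-449a-5p was most like miR-876-5p (0.85) and miR-126a-3p (0.82), an endothelial miRNA, followed by miR-30e-5p, miR-203-3p and miR-384-5p. MiR-211-5p had no close match, since its highest values were 0.57 for miR-7224-3p and 0.54 for miR-5099, miR-204-5p and miR-671-3p, then 0.53 for miR-1839-3p. These values describe strains that share batches and scaling.

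Neither host gene was called between ILS and ISS or between LXS41 and LXS80, the strains whose mRNA profiles were used. Strains in the other mRNA columns were not tested. Trpm3 was at 9.97, 9.92, 9.85, 9.42, 9.99 and 10.04 on the log2 scale in ILS and at 9.97, 9.97, 9.86, 10.002, 9.94 and 9.998 in ISS. One ILS profile, replicate 4, lay below all others, and the rest of ILS overlapped ISS. ILS minus ISS was -0.09 (SE 0.0700; 9.86 ± 0.23 against 9.96 ± 0.05, SD, n = 6 and 6; limma adjusted p = 0.503). This compares with 7.6% of 20617 genes called, 4.21% lower and 3.39% higher.

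In LXS41 Trpm3 was at 10, 10.08, 10.05, 9.94 and 10.05, and in LXS80 at 9.94, 9.87, 9.96, 9.95, 9.91 and 10.11. The groups overlapped, with a difference of 0.07 (SE 0.0735, limma adjusted p = 0.544), where 20.7% of genes were called, 18.7% of them lower in LXS41 as a share of all genes tested. That direction depends on scaling: 9.82% of the called genes were higher in LXS41 as deposited, and 37.8% of 1217 called after quantile normalization. The F test over the 4 strains, which called 22.6% of genes, gave Trpm3 an adjusted p of 0.325.

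Trpm1 was at 6.28, 6.27, 6.30, 6.18, 6.21 and 6.21 in ILS and at 6.15, 6.15, 6.16, 6.05, 6.15 and 6.22 in ISS. ILS lay mostly above ISS, with overlap at 1 ISS profile, and the difference was 0.09 (SE 0.0518, limma adjusted p = 0.325). In LXS41 Trpm1 ran from 6.19 to 6.38 and in LXS80 from 6.03 to 6.21 (difference 0.13, SE 0.0543, limma adjusted p = 0.0918). These levels lie just above the filter of 6, which Crx, a transcription factor of retinal photoreceptors, also passed with a mean of 6.26. Whether the Trpm1 signal stands above the background of its probes was not tested.

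Foxj1 was at 7.06, 7.16, 7.08, 7.05, 7.14 and 7.16 in ILS and at 6.94, 6.78, 7.21, 7.29, 7.13 and 7.17 in ISS. The ILS values lay inside the ISS range, and the difference was 0.02 (SE 0.0674, limma adjusted p = 0.901). LXS41 ran from 6.94 to 7.21 and LXS80 from 7.13 to 7.32, with overlap and a difference of -0.11 (SE 0.0707, limma adjusted p = 0.262). None of the 3 genes was called by the F test over strains, with adjusted p of 0.325 for Trpm3, 0.130 for Trpm1 and 0.520 for Foxj1.

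**Figure D3:**
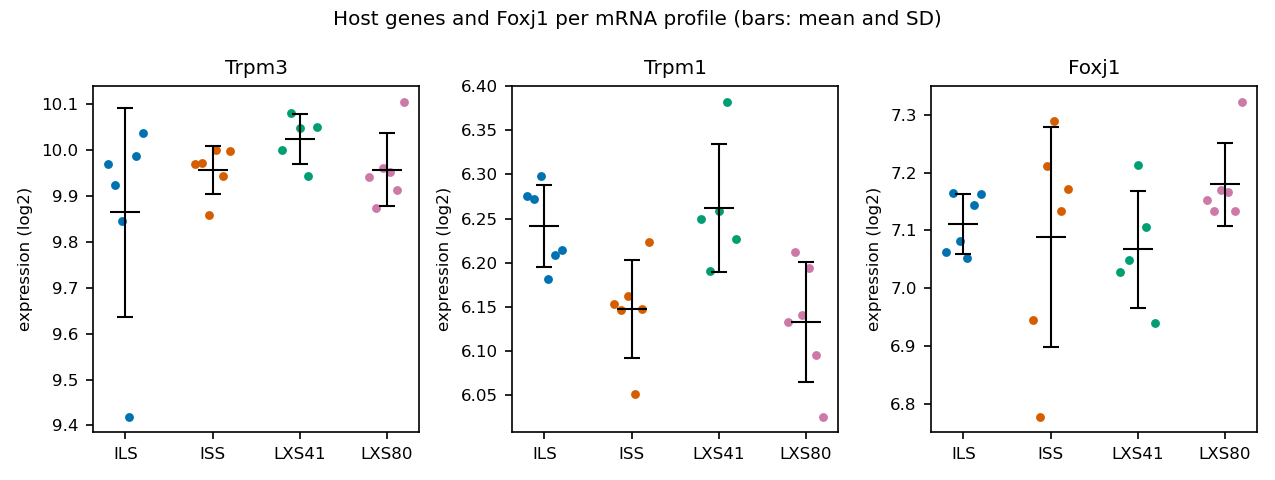
Log2 expression of Trpm3, Trpm1 and Foxj1 in each mRNA profile of ILS, ISS, LXS41 and LXS80, with the mean and SD. ILS replicate 4 lies lowest for Trpm3 at 9.42, and LXS80 replicate 6 highest for Foxj1 at 7.32.

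Among the strains whose mRNA profiles were used, LXS41 and LXS80 are those that also have miRNA values. Strains in the mRNA columns that were not used were not compared with their miRNA values. MiR-34c-5p was 33595 in LXS41, the highest of the panel, and 25193 in LXS80, and miR-34b-5p was 1541 and 1060. MiR-204-5p was 27031 and 30497, miR-211-5p 9.43 and 13.9, and miR-449a-5p 73.7 and 131. With 1 miRNA value per strain, these have no test. Foxj1 means were 7.07 and 7.18, and Trpm3 means 10.02 and 9.96, with overlapping profiles.

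Of the other genes around the miRNAs, Cdc20b, which spans the miR-449 hairpins, and Btg4, which spans those of miR-34b and miR-34c, were not called between ILS and ISS (differences -0.07 and -0.15, SE 0.0679 and 0.112, limma adjusted p = 0.619 and 0.496). Hoatz, which also spans the miR-34b and miR-34c hairpins, was not among the listed genes, and its values were not examined. Spans were matched by position and not by strand. Of 8 TRPM channel genes, 7 passed the filter and none was called in either comparison. Against 7.6% of all genes called between ILS and ISS, 2 of 11 genes described as targets of miR-204 or miR-211 were called: Meis1, a homeobox factor, fell in ILS (-0.34, SE 0.0827, limma adjusted p = 0.0111) and Runx2, a bone transcription factor, rose (0.18, SE 0.0491, adjusted p = 0.0267). Of 13 genes described as targets of miR-34 or miR-449, 12 passed the filter, and 1 was called, a share near that background: Ccp110, a centriole protein that is removed when cilia form, fell in ILS (-0.17, SE 0.0465, limma adjusted p = 0.0217). With set as a term the differences of Meis1, Runx2 and Ccp110 were -0.33, 0.16 and -0.17 and no longer passed (adjusted p = 0.253, 0.225 and 0.265). In a fit of ILS and ISS profiles alone, Meis1 and Runx2 missed the threshold (adjusted p = 0.0556 and 0.0652). Runx2 also lost its call without ILS replicate 4 or 5 or ISS replicate 1 or 2 (adjusted p up to 0.0779), and Ccp110 without ILS replicate 3 or 4 (up to 0.06). Between LXS41 and LXS80, 3 of these 12 were called lower in LXS41, where 18.7% of all genes were, from which the count is not told apart: Ccp110 (-0.16, SE 0.0488, limma adjusted p = 0.0271), Axl, a receptor kinase (-0.22, adjusted p = 0.0014), and Rras, a small GTPase (-0.17, adjusted p = 0.0393). In the miR-204 and miR-211 list, Ap1s2, a subunit of a clathrin adaptor, was lower in LXS41 (-0.22, limma adjusted p = 0.0134). After quantile normalization Axl still passed, and Ccp110, Rras and Ap1s2 did not (0.333, 0.606 and 0.0677). Ccp110 also missed without LXS41 replicate 1 or 4 or LXS80 replicate 3 or 6, and Rras without LXS41 replicate 1, 3 or 4 or LXS80 replicate 4 or 6 (limma adjusted p up to 0.1 and 0.118).

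Choroid plexus genes were lower in ILS than in ISS although Trpm3 was not called. Of 24 listed genes 21 passed the filter, 11 fell and none rose, where 4.21% of all genes tested fell and 3.39% rose. The median difference was -0.26, beside -0.01 over all genes tested. Sostdc1, a secreted BMP and Wnt antagonist, was at 6.82 to 7.71 (median 7.29) in ILS and 8.31 to 8.68 (median 8.44) in ISS, with no overlap. It was 2.21-fold lower in ILS (-1.14, SE 0.122, limma adjusted p = 9.41e-07), and LXS41 and LXS80 had means of 8.36 and 8.28.

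Kl, the anti-ageing protein klotho, fell by 0.61 (SE 0.105, limma adjusted p = 0.000450), the sulfate transporter Slc13a4 by 0.48 (SE 0.0655, adjusted p = 2.72e-05), and the folate receptor Folr1 by 0.29 (SE 0.0456, adjusted p = 0.000161). Ttr, the thyroid hormone carrier with the highest level of the list, was at 12.63 to 13.33 (median 12.95) in ILS and 13.08 to 13.24 (median 13.20) in ISS, overlapping (-0.28, SE 0.0954, limma adjusted p = 0.0788). It passed after quantile normalization (adjusted p = 0.0148) and without ILS replicate 6 (-0.36, adjusted p = 0.00965). Between LXS41 and LXS80 none of the 21 was called, where 20.7% of all genes were.

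ILS and ISS share 1 set number in the column names, set 1, with 3 profiles each, and the others stand in set 11 for ILS and set 15 for ISS. With set as a term, 6 of the 21 choroid plexus genes were called, and 5 within set 1 alone, with medians of -0.25 in both. Of all 20617 genes, 496 and 294 were called in these 2 fits. Folr1 was not among the 5 (adjusted p = 0.188). Meningeal genes moved in the same direction: of 6 listed 5 passed the filter, all 5 differences were negative, and Slc6a13 (-0.53, SE 0.0742, limma adjusted p = 3.84e-05) and Igf2 (-0.37, SE 0.0564, adjusted p = 0.000123) fell, though not within set 1 alone (adjusted p = 0.0789 and 0.0626). Of 3 astrocyte genes all differences were negative and the water channel Aqp4 fell (-0.26, SE 0.0726, limma adjusted p = 0.0255), and of 5 neuronal genes the glutamate transporter Slc17a7 rose (0.20, SE 0.0443, adjusted p = 0.00462). The call of Aqp4 was lost when only profiles of ILS and ISS were fitted (adjusted p = 0.052), without ILS replicate 4 or ISS replicate 2 or 3 (limma adjusted p up to 0.0674), with set as a term (0.318) and within set 1 (0.272). That of Slc17a7 was lost with set as a term and within set 1 (limma adjusted p = 0.305 and 0.358). Of 2 erythroid genes none was called. The part of these cells in the choroid plexus differences was not tested.

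Of 38 listed genes of multiciliated cells 31 passed the filter, 3 fell in ILS and none rose, beside 7.6% of all genes called and 4.21% lower, with a median of -0.05. Those that fell were the cilia protein gene Cfap52 (-0.21, SE 0.0483, limma adjusted p = 0.00712), the radial spoke gene Rsph1 (-0.22, SE 0.0508, adjusted p = 0.00785) and the central apparatus gene Spag16 (-0.22, SE 0.0652, adjusted p = 0.0394), and Spag16 lost its call in 8 of 23 fits that left out 1 profile (ILS replicate 1, 2, 4 or 6, or ISS replicate 1, 3, 4 or 6; adjusted p up to 0.099) and when only profiles of ILS and ISS were fitted (adjusted p = 0.0627). With set as a term 1 gene, Rsph1, was called, and within set 1 none, beside 496 and 294 of all 20617 genes. Of 11 regulators of the multiciliated cell program 10 passed the filter and Gmnc, a geminin relative that starts the program, fell (-0.25, SE 0.0691, limma adjusted p = 0.0235). The call of Gmnc was lost with set as a term (adjusted p = 0.154) and without ILS replicate 2 or 4 or ISS replicate 1 or 2 (adjusted p up to 0.0643). Of those 31 genes, 1 was called between LXS41 and LXS80, where 20.7% of all genes were: Drc1, a dynein regulator, was lower in LXS41 (-0.35, SE 0.0610, limma adjusted p = 0.0006).

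**Figure D4:**
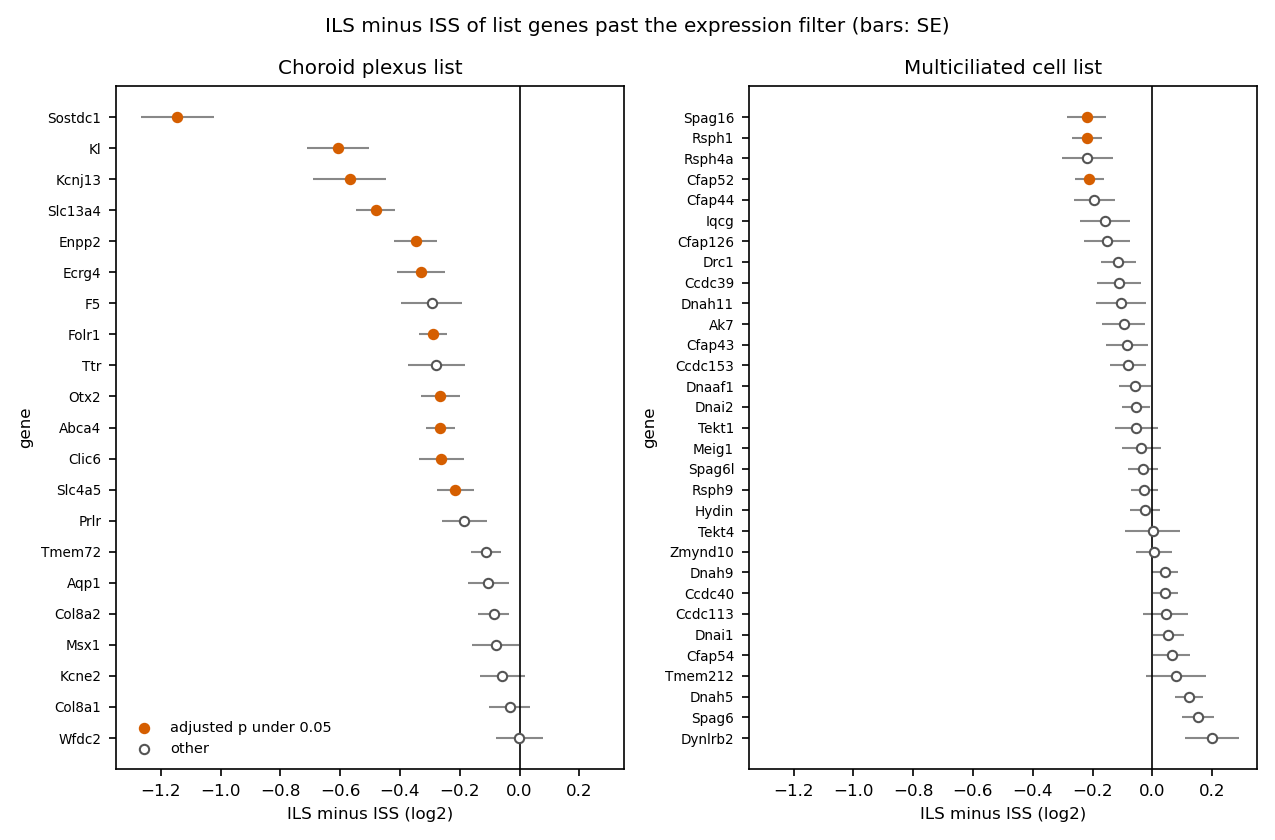
Differences ILS minus ISS on the log2 scale, with SE, of the 21 choroid plexus genes and 31 multiciliated cell genes that passed the filter; filled points passed an adjusted p of 0.05. All 21 choroid plexus differences lie below 0, down to -1.14 for Sostdc1, while the multiciliated cell genes lie on both sides of 0.

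Markers of the other cells in which Trpm1 is known gave no calls between ILS and ISS, which with 5 genes tested in each list and 7.6% of all genes called says little. Of 6 tabulated pigment cell genes 5 passed the filter, with Tyr, tyrosinase, at a mean of 4.63 below it, and of 6 genes of the retina and its pigment epithelium 5 passed, with Rpe65 at 4.89 below it. The 4 cerebellar genes had a median difference of -0.52 with none called. ILS replicate 4 was at 6.51 for Gabra6, a receptor subunit of cerebellar granule neurons, where the other ILS profiles ran from 10.24 to 10.57.

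Within strains, no pair passed the adjustment in the deposited values of all 23 profiles. Deviations from the strain mean were compared for 33 pairs, by two-sided permutation within strains. Trpm3 and Kcnj13, a potassium channel of the choroid plexus, had r of 0.67 (permutation, adjusted p = 0.0848; rho 0.58, adjusted p = 0.0944), and Trpm3 and Kl 0.53 (adjusted p = 0.088; rho 0.55, adjusted p = 0.0944). Without the 2 profiles farthest from the median of Trpm3 these were 0.53 and 0.59. With the other choroid plexus genes compared, r of Trpm3 was 0.58 for Ttr (permutation, adjusted p = 0.169; rho 0.41, adjusted p = 0.257), 0.24 for Clic6 (adjusted p = 0.242; rho 0.49, adjusted p = 0.0989) and 0.03 for Folr1 (adjusted p = 0.913; rho -0.08, adjusted p = 0.823). Trpm3 and Gabra6 had r of 0.89 (permutation, adjusted p = 0.088; rho 0.53, adjusted p = 0.158), 0.49 without the 2 farthest and 0.36 without ILS replicate 4 (adjusted p = 0.221; rho 0.29, adjusted p = 0.335). After quantile normalization no r passed, but rho of Trpm3 did with Ttr (0.61, permutation, adjusted p = 0.035), Kl (0.57, adjusted p = 0.035) and Kcnj13 (0.56, adjusted p = 0.0465), and rho of Trpm1 with the cilia genes Dnah5 (-0.65, adjusted p = 0.035) and Tmem212 (-0.61, adjusted p = 0.0465).

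ILS replicate 4 bears on these values. Without it 6 pairs passed: Trpm3 with Kl (r 0.73, permutation, adjusted p = 0.0271), Trpm1 (-0.67, 0.0271), Kcnj13 (0.66, 0.0296) and Clic6, a chloride channel (0.65, 0.0296), and Trpm1 with Kcnj13 (-0.60, 0.0296) and with the cilia gene Ccdc153 (0.53, 0.0459). Their rho passed for the 4 pairs of Trpm3 (0.63, -0.64, 0.65 and 0.62, adjusted p = 0.0338 each) and missed for both of Trpm1 (adjusted p = 0.0656 each). Trpm3 and Folr1 then had r of -0.32 (permutation, adjusted p = 0.276; rho -0.36, adjusted p = 0.259). With all profiles kept and both strain and set means removed, no pair passed. Trpm3 then had r of 0.75 with Kl, -0.14 with Trpm1, 0.82 with Kcnj13 and 0.21 with Clic6 (permutation, adjusted p = 0.0568, 0.632, 0.11 and 0.381). Trpm1 had r of -0.14 with Kcnj13 and 0.59 with Ccdc153 (permutation, adjusted p = 0.746 and 0.0568). Foxj1 had no pair that passed with all profiles, and its highest r with only the strain mean removed was 0.48, with Clic6 (permutation, adjusted p = 0.096; rho 0.40, adjusted p = 0.257). With set means removed as well, that r was 0.69 (permutation, adjusted p = 0.0526; rho 0.69, adjusted p = 0.0673). Foxj1 then had r of 0.51 with Kl and 0.48 with Kcnj13 (permutation, adjusted p = 0.0568 each; rho 0.61 each, adjusted p = 0.139 each). With Folr1 and Ttr it had r of 0.48 and 0.23 (permutation, adjusted p = 0.381 each). With the cilia genes Rsph1, Dnah5, Ccdc153 and Tmem212 it had 0.32, 0.08, -0.23 and 0.15 (permutation, adjusted p = 0.457, 0.746, 0.632 and 0.746). With only the strain mean removed these 4 were 0.30, 0.08, -0.04 and 0.07 (adjusted p = 0.212, 0.769, 0.913 and 0.823).

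**Figure D5:**
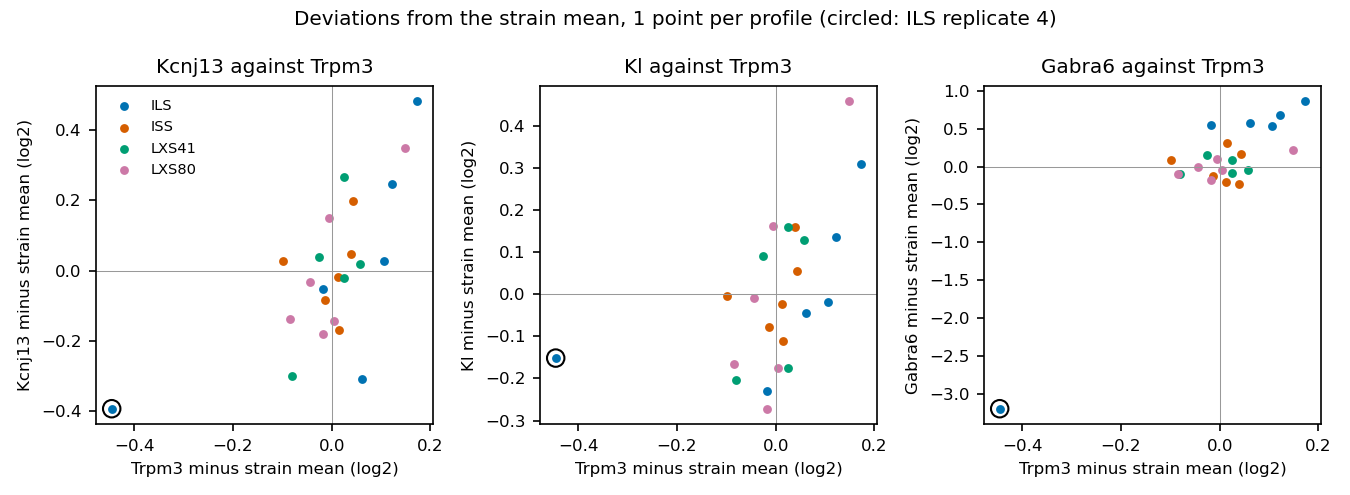
Deviations from the strain mean (log2) of Kcnj13, Kl and Gabra6 against those of Trpm3 in 23 profiles, coloured by strain, with ILS replicate 4 circled. That profile lies far from the others for Gabra6, and r of Trpm3 with Gabra6 was 0.89 with it and 0.36 without it, with Kl 0.53 and 0.73, and with Kcnj13 0.67 and 0.66.

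By likeness of deviations over all 23 profiles, the genes closest to Trpm3 were Kat2b, Zic1, Ank1, Neurod1 and Cbln1 (r 0.93 to 0.90), of which Zic1, Neurod1 and Cbln1 are genes of cerebellar granule neurons. Without ILS replicate 4 they were AW047730, Ccdc167, Abca7, Fyco1 and Cebpg (0.82 to 0.80), none of them in the first 5. Closest to Foxj1 were Il17d, Pou3f4, Xdh, Srp68 and Rita1 (0.86 to 0.81), and without ILS replicate 4 Il17d, Asb1, Pou3f4, Srp68 and Xdh. No listed choroid plexus or cilia gene stood among these.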

How the data were processed

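Small RNA libraries were size selected and made with a TruSeq Small RNA kit, per the labels' protocols. The authors deposited a normalized signal per miRNA and strain and a second table of variance-stabilized values on a log2-like scale. Scaling, aligner and genome build were not given in the sources used here. Values of the mRNA table are log2 expression values deposited by the authors per gene. Of the mRNA columns, 23 were used, where a strain had no more columns than labelled libraries, and 376 were not used. The miRNA tables hold 59 LXS strains and no column for ILS or ISS.

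MiRNAs with a mean normalized signal of at least 10 (647) were fitted on log2(value + 1), and genes at or above 6 in at least 5 profiles (20617) on the log2 values, with limma 3.58.1 in R 4.3.3 (trend, robust) and Benjamini-Hochberg adjustment over all features at 0.05. Folds on the log2(value + 1) scale understate changes of low features. Correlations used Python 3.11.15 and 100000 permutations. The scripts were tested on simulated data. The number of profiles limits the precision.

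Named features are the members, their opposite arms and families, the 5 features most like each member, the strains with the 3 highest and lowest values, and in each list up to 4 genes with the smallest p and the one with the highest level; Drc1, Axl, Rras, Ap1s2, Kcnj13, Clic6, Crx, Tyr, Rpe65 and Ccdc153 were named outside this rule, in part after their values were seen. Members, lists and tests were chosen with earlier results of these data known.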

Additional observations from a re-analysis of the deposited data

Results flagged for a closer look

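Of 27 combinations of a member and a group of 5 to 10 strains or profiles, 2 held a value far from the rest, where chance gives about 1 in 20. Trpm3 in ILS replicate 4 was 9.42 on the log2 scale, against 9.85 to 10.04 in the other ILS profiles, a gap of 0.691 of the group's range. In the same profile Gabra6 was at 6.51. Without it, ILS minus ISS of Trpm3 was -0.0042 (adjusted p = 0.98 by limma). Foxj1 in LXS80 replicate 6 was 7.32, against 7.13 to 7.17 in the other LXS80 profiles, a gap of 0.803 of the range. This profile also had the highest Trpm3 (10.11), Kcnj13 (9.23), Kl (9.82) and Clic6 (7.89) of its strain. The same held for Ttr, for the cilia genes Dnah5 and Tmem212 and for the cerebellar gene Gabra6. Other genes differed: Trpm1 and the cilia gene Ccdc153 were the lowest of the strain there. The choroid plexus gene Folr1 and the cilia gene Rsph1 lay within the range of the other LXS80 profiles. The cause of either value was not tested.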

How the results depend on the processing

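No paired analysis was possible because the mRNA columns carry no replicate letter and the miRNA tables hold 1 value per strain. Of 40 miRNA pairs 35 passed over all 59 strains by Spearman's rho, and between 25 and 35 passed with batch shares removed, another pseudocount or table, division by the strain total, or without the 2 farthest strains. Within groups 9 passed in batches 1 to 3, 9 in both and 8 in batches 4 and 5 (3, 2 and 7 without the 2 farthest strains), and 0 in the 8 strains of batch 5 alone, where permutation was exact. Of 4 arm pairs all passed over 59 strains, 2 of them positive and 2 negative. With batch shares removed 2 passed, both positive. Within the groups 4, 1 and 1 passed, 3, 0 and 1 without the 2 farthest strains, and 0 in batch 5 alone. With a mean signal of at least 100, where 404 miRNAs were tested, batch calls were 363 in place of 561, and calls between batches 4 and 5 and batches 1 to 3 were 288.

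ILS minus ISS gave 1567 calls, 496 with set as a term and 294 within set 1, where fewer profiles bear on the difference. Choroid plexus calls were 11, then 6 and 5, and cilia calls 3, then 1 and 0 (1 with a filter of 7). LXS41 minus LXS80 gave 4266 calls and 1217 after quantile normalization. Leaving out single profiles gave 1239 to 1645 calls for ILS minus ISS, 2058 to 4652 for LXS41 minus LXS80, 3102 to 5057 for the strain F test, 9 to 12 choroid plexus genes, 2 to 4 cilia genes and 0 to 6 correlated pairs. The counts of LXS41 minus LXS80 were 2058, 2264 and 2571 without LXS41 replicate 1, LXS41 replicate 4 and LXS80 replicate 6, and that of the F test 3102 without LXS41 replicate 1. Correlated pairs numbered 4, 6, 1, 2 and 2 without ILS replicates 2, 4 and 6 and ISS replicates 2 and 3. Cfap52 lost its call with set as a term, as did Gmnc, Meis1, Runx2, Ccp110 and Spag16.

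Signs turned, never with a call, for Foxj1 ILS minus ISS without ISS replicates 1 and 2 (-0.0056 and -0.0390, where all leave-outs ranged from -0.0390 to 0.0635), for HIGH minus LOW of miR-211-5p (-0.0527) and miR-34a-5p (0.0080) with those strains alone, and of miR-34c-3p (0.0211) without batch covariates. With ILS and ISS profiles alone, Meis1, Runx2, Spag16 and Aqp4 lost their calls, and miR-34a-5p lost its batch call in the variance-stabilized table and after division by the strain total. The causes were not tested.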
